A study of Mus musculus with 4 samples.

Results

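10 genes of the Polycomb system and of chromatin remodelling were followed in undifferentiated spermatogonia (A_undiff), and they were taken by symbol: Ezh1, Ezh2, Suz12, Eed, Bmi1, Rnf2, Cbx2, Smarca5, Hells and Chd4. All 10 were among the 27514 genes listed for every library. Single-cell RNA-seq had been made from testes of adult mice of C57BL6 background, aged 6 to 8 weeks, either untreated (CTRL) or harvested at day 10 after a single dose of 10 mg/kg busulfan (BU), an alkylating agent that removes most spermatogonia. Cells were sorted as E-cadherin+ CD49f+ c-KIT-, and the 2 experiments yielded a CTRL and a BU library apiece, pooled from 3 mice each. All mice were wild type, and no library stands for a single animal. Barcodes passed if more than 1000 genes were seen and if mitochondrial transcripts took less than 20% of the UMIs (unique molecular identifiers, 1 per captured RNA molecule), which left 3101 cells in CTRL 1, 2008 in BU 1, 1120 in CTRL 2 and 1264 in BU 2.

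Polycomb proteins form a pair of complexes that keep genes silent. PRC2 methylates a lysine in the tail of a core histone, with EZH2 or its paralogue EZH1 as the enzyme and SUZ12 and EED as the scaffold and the reader of the mark. PRC1 carries the ubiquitin ligase RNF2, its partner BMI1, and a CBX protein such as CBX2 that binds the methylated tail. SMARCA5, HELLS and CHD4 are ATPases that slide or eject nucleosomes: SMARCA5 drives the ISWI complexes, HELLS acts with CDCA7 and is needed for DNA methylation of repeats, and CHD4 is the motor of the NuRD deacetylase complex. In the germline these factors are known for keeping spermatogonial gene programmes in place and for preparing chromatin for meiosis. A_undiff hold GFRα1+ cells, which include the stem cells, and SOX3+ progenitors, while KIT marks the differentiating cells that follow.

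Cells were placed in a class when exactly 1 of Gfra1, Sox3 and Kit had a normalised level above 2 (natural log of 1 plus 100000 times the share of UMIs, the study's threshold for Gfra1). In the order CTRL 1, BU 1, CTRL 2 and BU 2, this gave 433, 729, 134 and 454 Gfra1+ cells, 1299, 245, 552 and 128 Sox3+ cells, and 10, 152, 15 and 53 Kit+ cells. A cell with a single UMI passed only below 15652 UMIs, and median UMIs per cell were 8066, 9858, 30931 and 34177, so cells of experiment 2 mostly needed more than 1 UMI. Genes not used for the classes followed them: Id4, a stem cell marker, lay between 72.9 and 113 CPM (counts per 1000000 UMIs) in Gfra1+ cells and between 25.9 and 43.4 CPM in Sox3+ cells, and the progenitor gene Rarg lay between 3.90 and 7.10 CPM and between 18.3 and 52.6 CPM. Stra8, a gene of differentiating cells, was highest in Kit+ cells of every library, at 215 to 401 CPM. The whole list of 6 differentiating genes did not follow it: its sum was 1892, 1241, 622 and 896 CPM in Kit+ cells and 1244, 1540, 830 and 1070 CPM in Gfra1+ cells, lower in Kit+ cells in 3 of 4 libraries. Most of that sum in Gfra1+ cells was Ccnd2, at 657 to 1323 CPM. Kit+ is therefore used as the name of a rule and not of a stage. All 7 spermatogonial markers were found, with a summed level of 1508 to 2396 CPM per library. The 10 spermatid genes together had 3115, 1127, 17775 and 9175 CPM, and the 15 somatic genes had 59.4, 57.1, 380 and 198 CPM.

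Some libraries stood apart before any comparison was made. CTRL 2 and BU 2 shared 677 cell barcodes, in which the larger library held a median of 72.6 times as many UMIs as the smaller, and 70 of the low copies (45 in CTRL 2 and 25 in BU 2) were among the passing cells. CTRL 1 and BU 1 shared 11 barcodes, and BU 1 and CTRL 2 shared 1. CTRL 1 was low for several of the 10 genes: in its Gfra1+ cells Suz12, Smarca5 and Hells were each under 0.5 times the level of every other library, which 4.16% of genes of at least 10 CPM also were. The sample labels give kit version 2 for experiment 1 and version 3.1 for experiment 2, so kit and experiment cannot be told apart. In the mouse annotation, exons of Ezh2, Suz12 and Rnf2 overlap a gene of the other strand that is also counted (Gm26625, Gm26563 and Trmt1l). Whether the counting used strand is not given in the sources used here, so the counts of these 3 genes are less certain.

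Promoters from RefSeq (GRCm38.p6, 250 bases before to 50 after the start) were found for 9 of the 10 genes, all but Cbx2. The letters of an E2F site (TTTCCCGC, TTTGGCGC, TTTGCCGC or TTTCGCGC on either strand) were present in 3 of these 9, Ezh2, Suz12 and Hells, and in 2.26% of 32851 promoters of the same length. These 3 are shown because they belong to the genes with the largest differences between cell cycle bins below, and Ezh1 is shown as the paralogue of Ezh2 that holds none of the letters. Eed, Smarca5 and Chd4 hold none of them either, and these genes were also called higher in S-high and G2M-high cells below. Capitals mark the match, whose first base lies at position 3 from the start site in Ezh2, at -219 in Suz12 and at -62 in Hells.
Hells, chr19:38930740-38931039, plus strand: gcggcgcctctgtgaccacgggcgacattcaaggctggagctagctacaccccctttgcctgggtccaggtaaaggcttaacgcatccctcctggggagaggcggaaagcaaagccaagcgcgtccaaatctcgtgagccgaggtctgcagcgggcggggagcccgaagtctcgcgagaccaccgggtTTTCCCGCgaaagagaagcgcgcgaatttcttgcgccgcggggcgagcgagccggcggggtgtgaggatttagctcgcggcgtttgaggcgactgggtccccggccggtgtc
Ezh2, chr6:47594981-47595280, minus strand: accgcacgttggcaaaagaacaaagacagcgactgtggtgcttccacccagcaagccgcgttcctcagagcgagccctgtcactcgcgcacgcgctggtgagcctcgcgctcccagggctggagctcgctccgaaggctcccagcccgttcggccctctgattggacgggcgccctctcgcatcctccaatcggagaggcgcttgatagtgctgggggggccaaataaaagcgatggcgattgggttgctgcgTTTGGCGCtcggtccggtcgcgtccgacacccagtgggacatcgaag
Suz12, chr11:79992856-79993155, plus strand: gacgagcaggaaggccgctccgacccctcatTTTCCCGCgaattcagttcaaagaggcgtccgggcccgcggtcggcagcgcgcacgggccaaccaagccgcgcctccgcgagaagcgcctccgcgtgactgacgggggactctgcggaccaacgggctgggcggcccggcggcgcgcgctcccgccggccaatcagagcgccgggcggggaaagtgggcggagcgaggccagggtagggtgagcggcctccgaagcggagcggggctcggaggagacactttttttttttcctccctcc
Ezh1, chr11:101226414-101226713, minus strand: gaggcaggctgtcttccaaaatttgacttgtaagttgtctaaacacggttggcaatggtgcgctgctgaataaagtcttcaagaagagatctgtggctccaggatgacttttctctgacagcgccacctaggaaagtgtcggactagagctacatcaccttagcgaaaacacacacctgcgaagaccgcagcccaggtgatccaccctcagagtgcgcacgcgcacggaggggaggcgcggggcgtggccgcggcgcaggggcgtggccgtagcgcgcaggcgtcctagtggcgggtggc
TTTGGCGC overlaps another searched string, TTGGCGCC, by 7 letters, and that string was in none of the 9. The letters CCAAT stood in Ezh2, Suz12, Eed and Chd4 (37.4% of all promoters), and TTTGAA or TTCGAA, the letters of a CHR element, in Suz12 and Eed (19.2%). AAGATGGC (YY1), the NRF1 motif and GGCGGGAA were in none, against 2.75%, 0.971% and 2.19% of all promoters. A match is a description of letters and not a measured binding site.

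In all passing cells the remodellers were the most abundant of the 10. Smarca5 had a mean of 546 CPM ± 191 (SD, n = 4 libraries), Chd4 436 ± 157 and Hells 327 ± 137. Each UMI counts a molecule by its 3′ end, so levels of different genes could be set side by side without a correction for length. Eed (99.0 ± 12.6), Suz12 (86.6 ± 37.0), Bmi1 (70.0 ± 14.2), Ezh2 (60.0 ± 20.2), Ezh1 (52.5 ± 10.5), Rnf2 (50.4 ± 8.53) and Cbx2 (34.6 ± 11.04) followed. Neighbours in this order differed by less than the larger of their SDs, except for the steps from Hells to Eed and from Rnf2 to Cbx2. Even in CTRL 1, the lowest library for Hells, it had 145 CPM against 96.5 for Eed. Smarca5 lay above Chd4 and Chd4 above Hells in each library. Without cells holding over 5% of UMIs on the spermatid list or over 1% on the somatic list, Bmi1 and Ezh2 changed places. Bmi1 then had 60.9 CPM ± 4.96 and Ezh2 61.9 ± 20.6. In the cells over 5% on the spermatid list (34, 7, 97 and 61 in library order), Bmi1 had 85.4, 116, 363 and 295 CPM.

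The PRC2 enzymes were expressed side by side in all classes. In Gfra1+ cells Ezh2 had 35.2 CPM in CTRL 1, 80.7 in BU 1, 59.3 in CTRL 2 and 79.1 in BU 2. In Sox3+ cells it had 31.9, 66.0, 47.0 and 61.1 CPM in the same order, lower in each library, but the difference of -0.23 ± 0.14 (log2, SE) did not pass (adjusted p = 0.34) and was 0.61 ± 0.29 in cycle-low cells only (adjusted p = 0.24). Both BU libraries lay above both CTRL libraries in each of these classes. Ezh1 had 42.6, 73.7, 68.7 and 57.3 CPM in Gfra1+ cells and 45.0, 64.5, 58.9 and 50.4 in Sox3+ cells, and its groups overlapped. Suz12 had 29.6, 94.2, 117 and 119 CPM in Gfra1+ cells, so that CTRL 1 alone was low. Eed, in contrast, stayed between 91.4 and 118 CPM in Gfra1+ cells and between 96.3 and 115 CPM in Sox3+ cells.

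**Figure D1:**
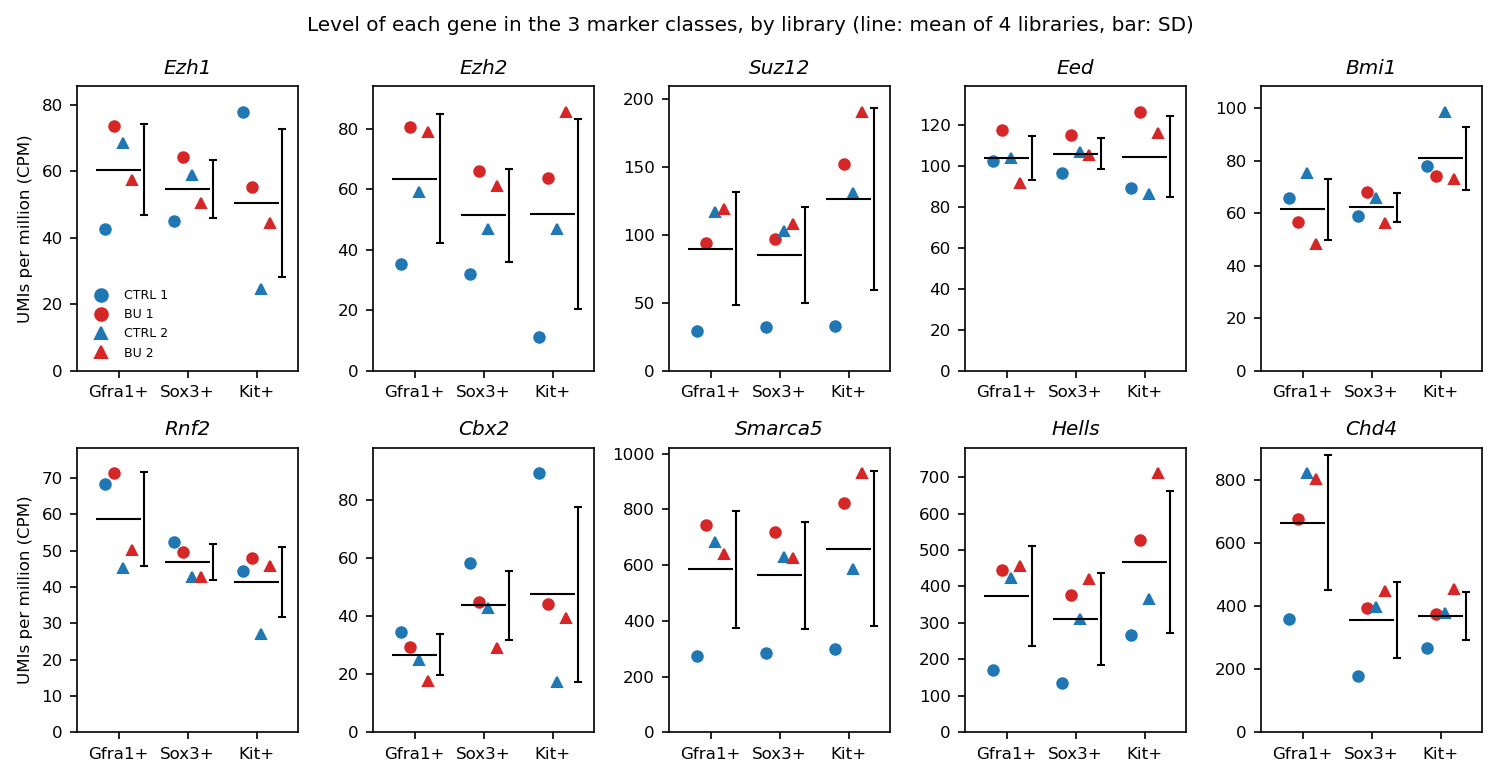
Level of each of the 10 genes (CPM, from 0, one panel a gene) in Gfra1+, Sox3+ and Kit+ cells, with 1 point for each library (circles for experiment 1, triangles for experiment 2, blue for CTRL and red for BU), a line at the mean of the 4 libraries and a bar for the SD. Chd4 falls from Gfra1+ to Sox3+ cells in all 4 libraries, Cbx2 rises, and CTRL 1 lies below the other libraries for Suz12, Smarca5 and Hells.

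Of the 10 genes, 1 rose and 1 fell from Gfra1+ to Sox3+ cells (edgeR quasi-likelihood test on UMIs summed per library and class, with the library as a term and Benjamini-Hochberg adjustment at 0.05). The same test called 13.6% of 12213 genes (6.43% higher and 7.19% lower), so a count of 2 in 10 is near the background. Chd4 fell by 0.86 ± 0.10 (log2, SE; adjusted p = 0.00048). It had 358, 674, 820 and 803 CPM in Gfra1+ cells and 179, 394, 398 and 449 CPM in Sox3+ cells, lower in 4 of 4 libraries. Within libraries the log2 ratio ran from -1.04 to -0.77. The call held without each library in turn (adjusted p at most 0.023). It was lost in cycle-low cells alone (-0.86, adjusted p = 0.36) and without all shared barcodes (-0.90, adjusted p = 0.15), with a difference of like size in both. The summed spermatid genes had 1509, 635, 4115 and 1275 CPM in Gfra1+ cells and 1047, 386, 1481 and 641 CPM in Sox3+ cells. With list-high cells left out (over 5% of UMIs on the spermatid list or over 1% on the somatic list), Chd4 differed by -0.86 (adjusted p = 1.3e-05) and Cbx2 by 0.76 (adjusted p = 0.00037), beside 25.7% of genes called.

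Cbx2, the reader subunit of PRC1, rose by 0.77 ± 0.18 (adjusted p = 0.017). It had 34.6, 29.5, 24.9 and 17.9 CPM in Gfra1+ cells and 58.1, 44.8, 42.6 and 29.0 CPM in Sox3+ cells, higher in 4 of 4 libraries. The call was lost without CTRL 1 (adjusted p = 0.12), BU 1 (0.12) or BU 2 (0.071), while the size of the difference stayed between 0.71 and 0.85. The other 2 PRC1 genes differed little between these classes: Rnf2 by -0.24 ± 0.13 (adjusted p = 0.27) and Bmi1 by 0.09 ± 0.11 (adjusted p = 0.67). Bmi1 had 65.8, 56.6, 75.5 and 48.5 CPM in Gfra1+ cells, and Rnf2 had 68.2, 71.2, 45.1 and 50.3 CPM. Smarca5 was level between the classes (0.02 ± 0.12, 95% interval -0.24 to 0.28), and Hells differed by -0.23 ± 0.12 (adjusted p = 0.22).

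Kit+ cells rested on few cells in the CTRL libraries, where Ezh2 was counted by 1 UMI and Suz12 by 3 UMIs in CTRL 1. In CTRL 2, 5 of the 15 Kit+ cells were list-high, and 2 were low copies of a shared barcode. The spermatid sum was 579, 568, 22226 and 1260 CPM in Kit+ cells and the somatic sum 100, 22.3, 15902 and 34.8 CPM, with Amh and Ptprc at 0. Against Gfra1+ cells, Chd4 fell by 0.90 ± 0.11 (adjusted p = 0.00063) and was lower in 4 of 4 libraries, at 267, 376, 378 and 453 CPM. Suz12 rose by 0.51 ± 0.13 (adjusted p = 0.015) and Cbx2 by 0.68 ± 0.22 (adjusted p = 0.047), Cbx2 in 3 of 4 libraries only. In cycle-low cells only none of the 3 was called: Cbx2 turned to -0.50 (adjusted p = 0.75), Suz12 was 0.23 (0.80) and Chd4 -1.97 (0.058). That fit held 3, 7, 5 and 3 Kit+ cells in the order of the libraries, too few to show whether the differences hold. These 3 calls among 10 stood beside 23.4% of all genes (10% higher and 13.4% lower). Suz12 was not called without BU 1 (adjusted p = 0.30) or BU 2 (0.14), nor Cbx2 without CTRL 1, BU 1 or BU 2 (0.15 to 0.34). With the list-high cells left out, 7 of the 10 were called beside 35.7% of all genes: Ezh1 (-0.42), Rnf2 (-0.44), Bmi1 (0.39) and Hells (0.36) joined them.

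From Sox3+ to Kit+ cells, Suz12 (0.49 ± 0.13, adjusted p = 0.031) and Hells (0.49 ± 0.12, adjusted p = 0.029) rose, beside 14.7% of all genes called and 5.77% called higher. Hells had 267, 528, 365 and 710 CPM in Kit+ cells against 134, 377, 310 and 420 in Sox3+ cells, higher in 4 of 4 libraries. Neither call held without BU 1 or BU 2 (adjusted p 0.16 to 0.33) or without all shared barcodes (0.28 and 0.79), and Hells was also not called without CTRL 1 (0.10). In cycle-low cells only Hells turned to -0.70 (adjusted p = 0.41) and Suz12 was 0.04 (0.97). This fit too held only 3, 7, 5 and 3 Kit+ cells, so it cannot show whether these rises hold. Chd4 did not pass between these classes (-0.04, 95% interval -0.29 to 0.20).

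The clearest pattern of the 10 genes followed the cell cycle. Each cell was thinned to 5000 UMIs and scored on 40 S phase genes and 43 genes of G2 and mitosis, none of which is among the 10. Cells below the median of both scores within their experiment were called cycle-low. Those above the 75th percentile of a score that also ranked higher on it than on the other score were called S-high or G2M-high. In the order of the libraries this gave 1493, 232, 530 and 249 cycle-low, 332, 681, 103 and 349 S-high, and 279, 613, 92 and 335 G2M-high cells. In S-high cells 6 of the 10 genes rose over cycle-low cells and none fell, beside 19.9% of 13959 genes called higher and 20.9% called lower. The median difference of the 10 was 0.60 (log2), against 0.03 for all genes.

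Hells changed most. It had 104 CPM in cycle-low cells of CTRL 1, 203 in BU 1, 180 in CTRL 2 and 100 in BU 2, and 268, 542, 628 and 601 CPM in S-high cells. The difference was 1.67 ± 0.15 (log2, SE; adjusted p = 0.00017), and in every library the S-high level was above any cycle-low level. Ezh2 had 24.6, 35.4, 36.9 and 52.2 CPM in cycle-low cells and 72.0, 100, 94.1 and 101 CPM in S-high cells, a difference of 1.21 ± 0.17 (adjusted p = 0.00084). Its levels in the bins did not overlap either. The share of all genes with levels apart between these bins was not counted, so this cannot be called unusual. Its paralogue Ezh1 did not pass (0.05 ± 0.14, 95% interval -0.28 to 0.37), with 43.2, 81.8, 44.3 and 29.1 CPM in cycle-low and 39.7, 64.3, 59.8 and 46.4 CPM in S-high cells.

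The other PRC2 core genes rose with Ezh2. Suz12 differed by 0.90 ± 0.17 (adjusted p = 0.0028), from 29.6, 70.9, 74.2 and 37.7 CPM to 39.7, 111, 145 and 148 CPM. Eed differed by 0.67 ± 0.13 (adjusted p = 0.0032), from 40.9 to 97.2 CPM in cycle-low and 107 to 135 CPM in S-high cells. Both were higher in 4 of 4 libraries, and the per-library difference of Suz12 ran from 0.42 in CTRL 1 to 1.98 in BU 2. None of the 3 PRC1 genes passed: Bmi1 differed by -0.45 ± 0.26 (adjusted p = 0.19), Rnf2 by -0.09 ± 0.14 (0.64) and Cbx2 by 0.41 ± 0.25 (0.22). Among the remodellers, Smarca5 rose by 0.68 ± 0.10 (adjusted p = 0.00094), from 250, 547, 443 and 262 CPM to 343, 755, 794 and 695 CPM. Chd4 rose by 0.54 ± 0.13 (adjusted p = 0.010), a call lost without CTRL 1 (adjusted p = 0.083) or CTRL 2 (0.070).

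Cells of G2 and mitosis gave nearly the same picture. The same 6 genes rose over cycle-low cells, beside 24.6% of all genes called higher: Hells by 1.44 ± 0.15, Ezh2 by 0.92 ± 0.17, Suz12 by 0.91 ± 0.16, Smarca5 by 0.81 ± 0.10, Eed by 0.63 ± 0.13 and Chd4 by 0.43 ± 0.13. The adjusted p of Chd4 was 0.022 and rose to between 0.12 and 0.15 without CTRL 1, CTRL 2 or BU 2. Chd4 was higher in 3 of 4 libraries only, with log2 ratios of 0.28, -0.23, 0.75 and 1.04 in the order of the libraries. In BU 1 it was also lower without list-high cells (-0.27). Between G2M-high and S-high cells edgeR called none of the 10, beside 1.05% of all genes, and DESeq2 called none either. Rnf2 alone had an interval away from 0 there (0.45, 0.14 to 0.76, adjusted p = 0.15).

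Markers of other cells moved with these bins. List-high cells made up 2.08%, 3.02%, 17.4% and 25.7% of cycle-low cells and at most 0.287% of S-high cells. The summed level of the 10 spermatid genes was 5426, 6546, 33780 and 46951 CPM in cycle-low cells and 409 to 1234 CPM in S-high cells, and that of the 15 somatic genes was 49.9, 74.96, 691 and 940 CPM against 22.3 to 46.4 CPM. All 25 were found in cycle-low cells, and Lyz2 alone was at 0 in S-high cells. The 8 spermatocyte genes together had 986, 1049, 1752 and 3392 CPM in cycle-low cells and 558 to 1172 CPM in S-high cells. The 7 spermatogonial markers had 1927, 2321, 1353 and 772 CPM in cycle-low cells and 2137, 2468, 1848 and 1705 CPM in S-high cells. The list-high rule uses neither of these lists, and their part in the differences between bins was not tested. With list-high cells left out, the same 6 genes were called in S-high cells beside 15.9% of all genes called higher, at 1.56 for Hells, 1.15 for Ezh2, 0.80 for Suz12, 0.57 for Eed, 0.57 for Smarca5 and 0.44 for Chd4. Bmi1 turned from -0.45 to 0.15 and passed in neither case (adjusted p = 0.31 without these cells). Without all shared barcodes the 6 genes were also called, at 0.41 to 1.56. In G2M-high cells without them Chd4 was lost (0.15, adjusted p = 0.19) and Rnf2 was called (0.54, adjusted p = 0.0016).

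**Figure D2:**
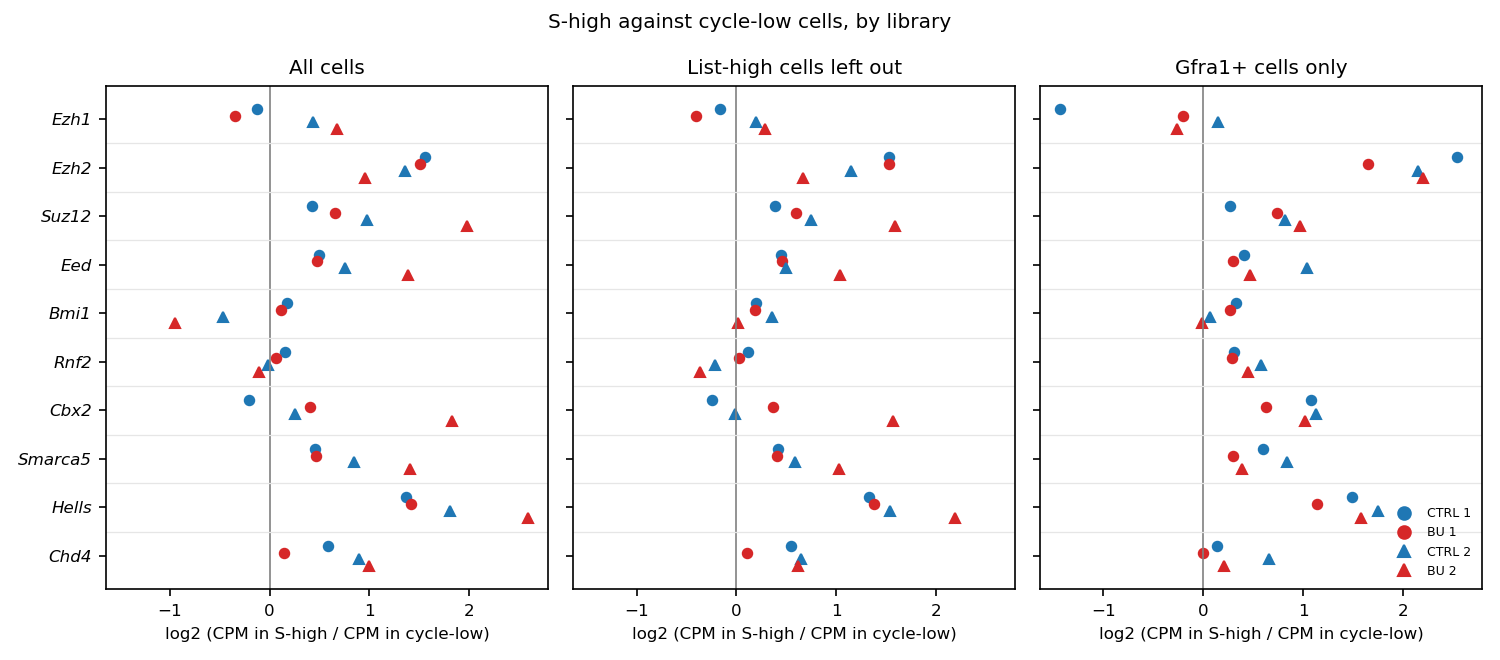
Difference between S-high and cycle-low cells (log2 of the ratio of CPM, x axis) for each gene and library, in all cells, without list-high cells, and in Gfra1+ cells only. Hells and Ezh2 lie to the right of 0 in every library and panel, and the per-library values of Bmi1, Rnf2 and Ezh1 lie on both sides of 0 in all cells.

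Within Gfra1+ cells alone 7 of the 10 rose in S-high over cycle-low cells, beside 15% of 9556 genes called higher. Ezh2 rose by 2.14 ± 0.15 (adjusted p = 3.4e-08), from 13.6, 35.6, 22.0 and 24.5 CPM to 79.2, 112, 97.4 and 112 CPM, which was the largest difference of the 10. Hells rose by 1.52 ± 0.10 (adjusted p = 1.2e-08), Suz12 by 0.83 ± 0.13, Eed by 0.56 ± 0.15 and Smarca5 by 0.54 ± 0.09. A pair of PRC1 genes joined them, Cbx2 with 1.01 ± 0.19 (adjusted p = 0.0010) and Rnf2 with 0.43 ± 0.12 (adjusted p = 0.016). Chd4 (0.27 ± 0.12, adjusted p = 0.10), Bmi1 (0.15 ± 0.12) and Ezh1 (-0.25 ± 0.16) did not pass. In Gfra1+ cells Ezh2 (-0.43 ± 0.12, adjusted p = 0.047) and Hells (-0.31 ± 0.09, adjusted p = 0.048) were lower in G2M-high than in S-high cells, beside 7.58% of genes called.

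The link was also read cell by cell, on cells thinned to 5000 UMIs (2825, 1928, 1006 and 1169 cells). Spearman's rho of Hells with the S phase score was 0.240, 0.347, 0.448 and 0.496, each above the 95th percentile over all genes of that library (0.116, 0.0850, 0.195 and 0.178). Ezh2 had 0.144, 0.177, 0.133 and 0.200, above that percentile in all but CTRL 2. Suz12 had 0.0349, 0.00802, 0.190 and 0.210, above it in BU 2 alone, and Eed had 0.0836, 0.116, 0.194 and 0.145, above it in BU 1 alone. Chd4 had 0.142, 0.116, 0.303 and 0.222 with the S phase score, above that percentile in every library. Smarca5 was also above it in every library. With the score of G2 and mitosis Chd4 had 0.0528, -0.102, 0.271 and 0.229. Its BU 1 value was under the 5th percentile over all genes there (-0.0858). Smarca5 was nearer to the score of G2 and mitosis in 3 of the 4 libraries (0.118, 0.175, 0.414 and 0.405, against 0.127, 0.0919, 0.359 and 0.294 for S phase). Ezh1, Bmi1 and Rnf2 stayed between -0.154 and 0.120 with the S phase score. These cells share a library and its depth, and the counts are sparse, so the values are a description.

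**Figure D3:**
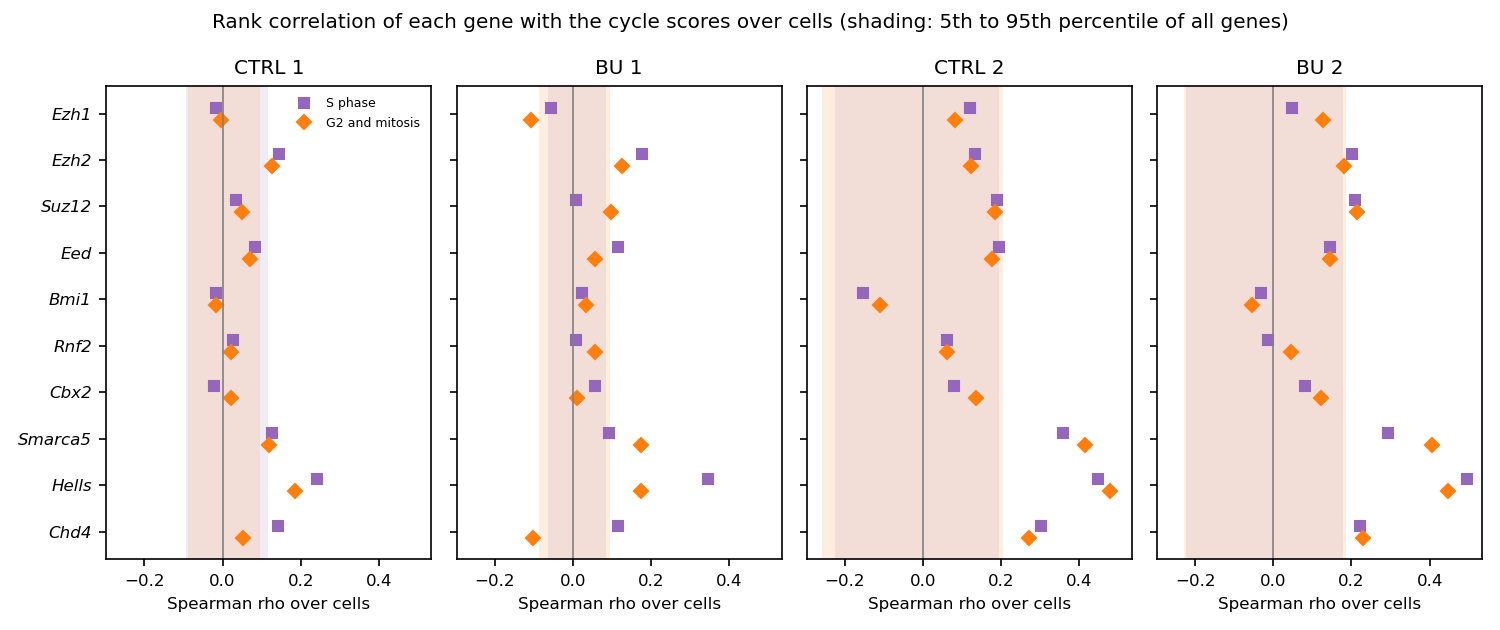
Spearman's rho across cells (x axis) between each gene and the S phase score (squares) or the score of G2 and mitosis (diamonds), one panel a library, with shading from the 5th to the 95th percentile over all genes of that library. Hells lies right of the shading in every panel, at 0.240 to 0.496 with the S phase score, and Bmi1 lies within it.

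The study compared BU with CTRL to describe A_undiff as they start to regenerate, and its text names Smarca5, Hells, Suz12 and Ezh2 among genes raised in regenerative Gfra1+ cells. Those 4 were chosen there on these same libraries, so their direction here is not independent evidence. The study tested single cells and not sums per library, and chose its Gfra1+ set with no rule on Sox3. Clusters of somatic cells, of spermatids and of cells high in Kit had been left out there. Its test and its cells thus differ from those used here. It reported similar genes in Eomes+ cells and within its primitive and proliferative stem cell clusters. With condition as the only term, edgeR called none of the 10 and 0% of 12981 genes in Gfra1+ cells, where 448 genes had an unadjusted p under 0.05 and DESeq2 called 4. Ezh2 was higher in BU by 0.86 ± 0.32 (log2, SE; 95% interval 0.06 to 1.67, unadjusted p = 0.040, adjusted p = 1.0), Hells by 0.71 ± 0.44, Suz12 by 0.66 ± 0.61 and Smarca5 by 0.64 ± 0.44. With the experiment as a replicate block, 0.609% of genes were called and again none of the 10. The smallest adjusted p of the 10 was then 0.11, for Ezh2 (0.89 ± 0.24). Without all shared barcodes the block called 0 of 12533 genes, and Ezh2 differed by 0.82 (adjusted p = 0.94). With list-high cells left out, Ezh2 differed by 0.84 and no gene was called. Each library pools 3 mice, so these p-values measure the spread between pools and not between mice. Without the block that spread also holds the difference between the experiments, with their kits. On simulated Gfra1+ sums with an experiment effect, the fit without the block recovered 0% of genes changed by 1 (log2). With the block it recovered 70%. The lack of calls without the block therefore cannot show that levels were alike. The simulation gave every gene the same relative spread and changed only genes expected at 10 or more UMIs in each sum. Its 70% is thus not the power of the block fit on these libraries.

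The 2 experiments differed in size. In Gfra1+ cells of experiment 1, BU was 3.18 times CTRL for Suz12, 2.70 for Smarca5, 2.598 for Hells, 2.29 for Ezh2 and 1.88 for Chd4. In experiment 2 the ratios were 1.02, 0.939, 1.08, 1.33 and 0.980. CTRL 2 was 3.95 times CTRL 1 for Suz12, 2.48 for Smarca5 and 2.47 for Hells, whereas BU 2 was 1.26, 0.860 and 1.03 times BU 1. The low values were thus those of CTRL 1. Without CTRL 1 the difference fell to 0.03 for Suz12, 0.18 for Smarca5, 0.26 for Hells and 0.01 for Chd4, and was 0.59 for Ezh2. Both BU libraries lay above both CTRL libraries for Ezh2 and Hells and below them for Bmi1, which held for 10.1% of genes (above) and 18.3% (below). Bmi1 was 0.861 and 0.642 times CTRL in the 2 experiments.

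**Figure D4:**
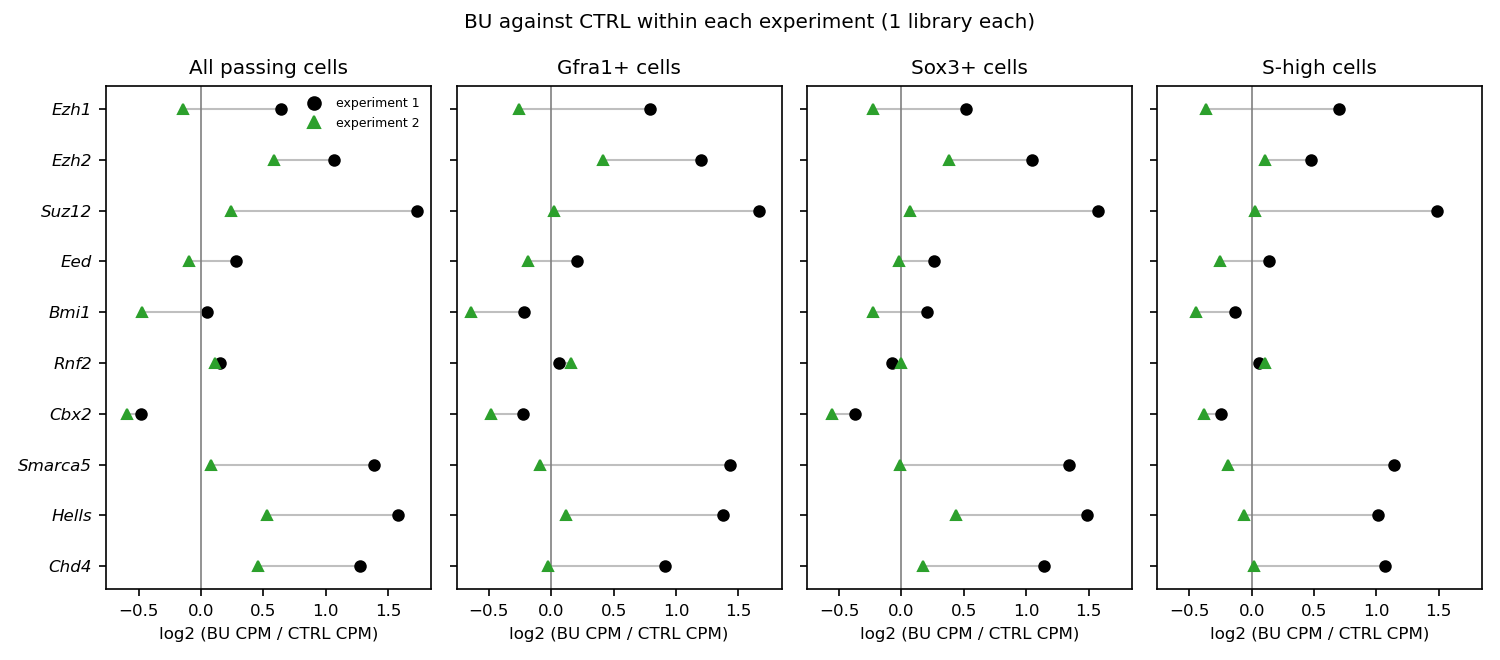
Ratio of BU to CTRL within each experiment (log2, x axis) for each gene in 4 sets of cells, with black circles for experiment 1 and green triangles for experiment 2 joined by a line, 1 library a condition. In Gfra1+ cells Suz12, Smarca5, Hells and Chd4 lie between 0.91 and 1.67 in experiment 1 and between -0.09 and 0.11 in experiment 2.

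In all passing cells BU was 2.99 and 1.44 times CTRL for Hells in the 2 experiments, 2.09 and 1.4995 for Ezh2 and 2.41 and 1.37 for Chd4. Hells had 145 and 298 CPM in the CTRL libraries and 434 and 430 CPM in the BU libraries. Ezh2, Suz12, Smarca5, Hells and Chd4 were higher in both BU libraries than in both CTRL libraries, as were 20.2% of genes of at least 10 CPM. None passed without the block (0 of 17354 genes called, 926 at an unadjusted p under 0.05, 112 by DESeq2) or with it (1.49% of genes called), and the smallest adjusted p with it were 0.087 for Hells (1.08 ± 0.25) and 0.095 for Chd4 (0.89 ± 0.22). Leaving out all shared barcodes kept 741 of the 1264 cells of BU 2. The block then called 0 of 16241 genes, with an adjusted p of 0.44 for Hells and for Chd4. Cbx2 was lower in BU in both experiments, at 0.717 and 0.662 times CTRL, with a difference of -0.50 ± 0.42. The median difference of the 10 was 0.50 (log2) and that of all genes 0.07.

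The shares of cells in each bin and class stood beside these values, and their part in them was not tested. Cycle-low cells made up 52.8% and 52.7% of thinned cells in the CTRL libraries and 12.03% and 21.3% in the BU libraries, and S-high cells 11.8% and 10.2% against 35.3% and 29.9%. The differences of -36.1 and 21.6 points reached the smallest two-sided exact permutation p of 2 against 2 libraries (0.33). Gfra1+ cells were 14.0% and 11.96% of cells in CTRL and 36.3% and 35.9% in BU, and Sox3+ cells were 41.9% and 49.3% against 12.2% and 10.1%, with the same p. Within Gfra1+ cells, cycle-low cells were 37.6% and 39.5% in CTRL and 12.8% and 20.2% in BU.

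Within bins the experiments also differed. In S-high cells Hells was 2.02 and 0.958 times CTRL, Smarca5 2.20 and 0.876, Suz12 2.81 and 1.02, and Ezh2 1.39 and 1.08. In cycle-low cells of Gfra1+ cells Hells was 2.49 and 1.00 times CTRL (100 and 197 CPM in CTRL, 250 and 197 CPM in BU), and Ezh2 2.62 and 1.11. In cycle-low cells of all classes BU was lower than CTRL in experiment 2 for Hells (1.95 and 0.556 times in the 2 experiments), Suz12 (2.40 and 0.508), Smarca5 (2.19 and 0.591) and Eed (1.11 and 0.543). List-high cells were 17.4% of that bin in CTRL 2 and 25.7% in BU 2. Without them BU 2 was still below CTRL 2. Hells then had 217 CPM in CTRL 2 and 132 in BU 2, Suz12 86.8 and 49.3, Smarca5 529 and 341, and Eed 90.3 and 52.4. With all cells kept, the spermatogonial markers of that bin summed to 1353 CPM in CTRL 2 and 772 in BU 2. The spermatocyte genes summed to 1752 and 3392 CPM, and the list-high rule uses neither list. In cycle-low Gfra1+ cells Suz12 had 84.9 CPM in CTRL 2 and 69.3 in BU 2, Smarca5 473 and 498, and Eed 62.1 and 74.2. The part of the mix of cells was not tested. None of the 10 passed in S-high, G2M-high or cycle-low cells without the block (0 genes called in each, with 302, 624 and 302 at an unadjusted p under 0.05 and 12, 22 and 3 by DESeq2) or with it (1.21%, 2.2% and 1.67% of genes). By direction, the block called 0.473% of genes higher and 0.741% lower in S-high cells, 0.908% and 1.29% in G2M-high cells, and 0.647% and 1.03% in cycle-low cells. Cbx2 in cycle-low cells came nearest with the block (-1.54 ± 0.47, adjusted p = 0.067), from 51.8 and 29.4 CPM in CTRL to 28.6 and 7.61 CPM in BU. Counts in that bin were 685, 63, 570 and 69 UMIs in the order of the libraries. Without all shared barcodes Cbx2 was -1.31 with the block (adjusted p = 0.24). Sox3+ cells made up 780, 50, 302 and 31 of the 1493, 232, 530 and 249 cells of the bin, and their part was not tested. In cycle-low Gfra1+ cells Cbx2 had 26.3 and 15.9 CPM in CTRL and 23.4 and 10.8 CPM in BU.

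In Sox3+ cells Hells had 134 and 310 CPM in CTRL and 377 and 420 CPM in BU, and Ezh2 had 31.9 and 47.0 against 66.0 and 61.1 CPM. Both were higher in both BU libraries, as were 19.3% of genes. Hells reached an adjusted p of 0.062 with the block (0.94 ± 0.24), where 1.38% of genes and none of the 10 were called. Without CTRL 2, Suz12 (1.59, adjusted p = 0.046) and Hells (1.502, adjusted p = 0.048) were among 138 of 13095 genes called. CTRL is then CTRL 1 alone, the library low for both genes, which is assumed to vary like the BU libraries. In Kit+ cells no gene was called without the block (997 at an unadjusted p under 0.05, 102 by DESeq2), with it 2.91% of genes and none of the 10 were, and without CTRL 2 Suz12 (2.45, adjusted p = 0.019) and Smarca5 (1.63, adjusted p = 0.037) were among 327 of 10632. That fit rests on CTRL 1 alone, with 10 Kit+ cells and 3 UMIs of Suz12, under the same assumption. By edgeR's interaction test, a difference in the effect of BU between Sox3+ and Gfra1+ cells passed for none of the 10 (0.0377% of genes called, differences of -0.28 to 0.27, adjusted p at least 0.88). Nor did one pass between Kit+ and Gfra1+ cells (4.25% of genes called) or between S-high and cycle-low cells (0% of 15267 genes), where the largest differences were 0.52 and 1.03, both for Cbx2.

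Partners of these genes, taken from 6 lists of complex members and related genes, were read in the same fits. The PRC2 list includes Kdm6a and Kdm6b, and the PRC1 list Bap1, Asxl1 and Asxl2, which are not subunits of these complexes. Of 11 PRC2 partners tested, 6 rose and none fell in S-high over cycle-low cells (median difference 0.39), and of 27 PRC1 partners 9 rose and none fell (median 0.26), beside a median of 0.03 for all genes. Of 18 CHD and NuRD genes 5 rose and 1 fell, of 22 SWI/SNF genes 5 rose and 2 fell, of 9 ISWI genes 1 rose and 1 fell, and of 12 genes for the HELLS partner and other SNF2 family members 4 rose and none fell. The background was 19.9% of genes called higher and 20.9% lower, and the CHD and NuRD, SWI/SNF and ISWI shares of higher calls were near or below it. Cdca7, whose product recruits HELLS to chromatin, rose by 1.18 ± 0.12 (adjusted p = 0.00024), and Rad54l, a recombination ATPase, by 1.32 ± 0.20. Baz1b, an ISWI partner of SMARCA5, rose by 1.095 ± 0.13. Chd5, a NuRD ATPase known from spermatids, fell by 3.08 ± 0.52 on the log2 scale, Baz2b by 0.62 ± 0.18 and Smarcd3 by 0.53 ± 0.16. In G2M-high cells the PRC2 partners were 8 up and 1 down and the PRC1 partners 12 up and 1 down, beside 24.6% of genes called higher and 23.6% lower. Over all 6 lists the largest rises there were those of Baz1b (0.93 ± 0.13, ISWI), Pbrm1 (0.84 ± 0.08, SWI/SNF) and Scml2 (0.83 ± 0.16, PRC1), and the largest falls those of Chd5 (-3.32), Chrac1 (-0.89, ISWI) and Ring1 (-0.75, PRC1), by the rule for named partners. Cdca7 was lower in G2M-high than in S-high cells (-0.64 ± 0.12, adjusted p = 0.047).

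Between classes the partners changed in both directions. From Gfra1+ to Sox3+ cells Scmh1 (-1.70 ± 0.21), a PRC1 partner, and the SWI/SNF genes Smarca2 (-1.01 ± 0.14) and Arid2 (-0.65 ± 0.18) fell, while Bcl7c (1.04 ± 0.11), Bcorl1 (0.91 ± 0.16) and Cecr2 (0.69 ± 0.14) rose. In Kit+ cells Scmh1 (-1.80), Pcgf6 (-1.73) and Cbx7 (-1.45), all PRC1 subunits or partners, were lower than in Gfra1+ cells, and Chd5 (2.12), Bcl7c (1.16) and Mta1 (0.83) were higher. Against Sox3+ cells, Cbx7 (-1.47), Chd1 (-1.27) and Cdca7l (-0.74) fell and Chd5 (1.60) and Kdm6b (0.57) rose in Kit+ cells. Over these 6 lists 4, 9 and 8 genes rose and 6, 16 and 10 fell in the 3 class comparisons, of 99 tested, beside 13.6%, 23.4% and 14.7% of all genes called. For BU against CTRL none of the listed genes passed without the block, and with it only Smarcc2 (1.53 ± 0.35), Baz1a (1.24 ± 0.34) and Mta1 (1.09 ± 0.31) did, all in G2M-high cells.

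The genes whose levels ran most like each member over the 12 class and library levels were read from 9059 genes of at least 10 CPM (Pearson's r of log2 of CPM plus 1). For Hells these were Atad5 (0.988) and Smc2 (0.983), for Ezh2 Kif4 (0.979) and Drosha (0.968), and for Smarca5 Nup160 (0.985) and Blm (0.982), the last of which is on the S phase list. Suz12 ran with Hist1h2aa (0.993) and Cdk5rap2 (0.985), Chd4 with Fnbp1l (0.967) and Fgd6 (0.966), and Cbx2 with Kcns1 (0.987) and Rsad1 (0.970). For Ezh1 the nearest were Mb21d1 (0.923) and Zer1 (0.906), for Eed Arih1 (0.908) and Ddias (0.906), for Bmi1 Rsbn1 (0.876) and Col22a1 (0.871), and for Rnf2 Ubxn2b (0.955) and Gm773 (0.954). The 12 points share 4 libraries and their depth, so these values describe likeness over libraries as much as over classes.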

How the data were processed

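The deposited files hold raw UMI counts per gene and cell for 4 libraries, made by the authors with Cell Ranger (the matrix headers give 3.0.2). The labels name GRCm39 and the study's methods mm10, and the annotations listed differ between experiments, so the 27514 genes shared by ID were used. Passing barcodes held 21012815 to 52648297 UMIs per library. Barcodes with over 1000 genes and under 20% of UMIs on 13 mitochondrial genes were kept, and UMIs were summed per library and population. Scrublet (scanpy 1.11.5) gave the alternative without doublets, and at its own threshold it marked 0 to 8 cells per library, so doublets were kept.

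Sums were fitted in edgeR 4.0.16 (R 4.3.3) with filterByExpr, TMM scaling, a quasi-likelihood test and Benjamini-Hochberg adjustment over all genes at 0.05. Class and bin comparisons used 12 sums with library as a term, and BU against CTRL used condition alone. The study's methods name no term for the experiment either, but its test (MAST) was run on single cells. DESeq2 1.42.0 was an alternative. Replicate numbers mark experiments, whose libraries shared a sequencing lane, and the residuals of CTRL 1 and BU 1 about their condition averages correlated at 0.776, so a fit with the experiment as a block is given beside counts of calls. Tested on simulated data with an experiment effect, BU against CTRL in all cells recovered 0% of genes changed by 1 (log2) without the block and 73.5% with it (17419 genes). S-high against cycle-low cells recovered 95% (14561 genes). These simulations gave every gene the same relative spread, so the shares recovered are not the power in the real data. CPM are counts per 1000000 summed UMIs, and SDs are over 4 libraries.

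The 10 genes and all lists were chosen with earlier results of these data known. Named partners were, for each comparison, up to 3 with the largest rise and 3 with the largest fall past the threshold, at a mean of at least 10 CPM and in the same direction in every library or both experiments. A partner that this rule named in Kit+ against Sox3+ cells is not reported here. The 2 genes most alike per member were taken by Pearson's r.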

Additional observations from a re-analysis of the deposited data

How the results depend on the processing

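The experiment as a replicate block changed no call of the 10 genes for BU against CTRL, while the genes called rose from 0 to 258 in all cells, 79 in Gfra1+, 187 in Sox3+, 269 in Kit+, 261 in cycle-low, 154 in S-high and 274 in G2M-high cells. Without all shared barcodes the block called 0, 0, 204, 0, 20, 124 and 146 genes in the same order. The count of members called for BU against CTRL stayed at 0 under all 15 alternatives in all cells and all 17 in Gfra1+ cells. Most of these kept condition as the only term. In simulations with an experiment effect that design recovered 0% of changed genes in both sets of cells. A count of 0 was thus likely in advance and does not show that levels were alike. Without single libraries it ranged from 0 to 2 in Sox3+ cells and from 0 to 2 in Kit+ cells, with 2 in both cases without CTRL 2 (138 and 327 genes called). The 6 members called in S-high and the 6 in G2M-high cells stayed within 1.5 times of that count under all 18 alternatives each. The genes behind the count could change. In G2M-high against cycle-low cells, Eed (adjusted p = 0.051) and Chd4 (0.58) were lost in Gfra1+ cells only. Rnf2 (0.56, adjusted p = 0.0023) and Cbx2 (0.67, adjusted p = 0.017) were called there instead, beside 3432 of 9556 genes.

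The class counts were less stable. For Sox3+ against Gfra1+ cells 2 members (1663 genes) became 1 in cycle-low cells only (943) and 1 without all shared barcodes (1461), and 1 to 3 without single libraries (683 to 3349). For Kit+ against Gfra1+ cells 3 members (2856 genes) became 6 by DESeq2 (3754), 1 with no filter on low counts (3616), 7 without list-high cells (4324), 5 with classes by any UMI after thinning (3247), 7 with classes that may overlap (4831), 0 in cycle-low cells only (415), 1 without all shared barcodes (1943), and 1 to 7 without single libraries (609 to 5024). For Kit+ against Sox3+ cells 2 members (1801 genes) became 0 with no filter (3052), in cycle-low cells only (935) and without all shared barcodes (657), and 0 to 2 without single libraries (3 to 3028). DESeq2 called 2758 genes there. For G2M-high against S-high cells 0 members (147 genes) became 2 in Gfra1+ cells only (724), 2 without all shared barcodes (925), and 2 without BU 2 and list-high cells together (1264), and DESeq2 called 673 genes. The causes were not tested, and several of these settings leave fewer cells or libraries.

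In 4 cases a member's difference changed sign and was called in one of the settings: Cbx2 in Kit+ against Gfra1+ cells (-0.50) and Hells in Kit+ against Sox3+ cells (-0.70), both in cycle-low cells only, and Rnf2 in S-high (0.43) and Chd4 in G2M-high against cycle-low cells (-0.093), both in Gfra1+ cells only. The values for Cbx2 and Hells rest on 3, 7, 5 and 3 cycle-low Kit+ cells in the order of the libraries. A further 215 member values changed sign with no call in either setting, among them Bmi1 in S-high cells without list-high cells (0.15) and Ezh2 (0.61) and Hells (0.15) in Sox3+ against Gfra1+ cells in cycle-low cells only. In Gfra1+ cells only, 2613 genes were called in S-high and 3432 in G2M-high cells, against 5694 and 6729 in all cells. The settings without TMM scaling, without low-UMI copies, without all shared barcodes, and those that join the block or a left-out library with another choice were chosen after seeing the data.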
